A study of Mus musculus with 30 samples.

Results

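The 10 genes described here encode the proteins that act before, beside and after Dicer1 in the microRNA pathway. They are the nuclear processing genes Drosha and Dgcr8, the export gene Xpo5, the Dicer1 partner genes Tarbp2 and Prkra, the Argonaute genes Ago1, Ago2 and Ago3, and the GW182 genes Tnrc6a and Tnrc6b. They were listed by name for their roles beside Dicer1, with no threshold on a measured value but with earlier results of these data known, and each symbol matched 1 of the 54146 genes in the count table. All 10 passed the filter on low counts in each of the 20 comparisons.

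MicroRNAs are transcribed as long primary transcripts, which the nuclease Drosha and its RNA-binding partner Dgcr8 cut into hairpins in the nucleus. Exportin-5, the product of Xpo5, carries the hairpins to the cytoplasm. There Dicer1, with the double-stranded RNA-binding proteins encoded by Tarbp2 and Prkra, cuts them into short duplexes, of which 1 strand is held by an Argonaute protein. GW182 proteins bind Argonaute and recruit deadenylases to the target mRNA.

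RNA-seq was done on J774A.1, a mouse macrophage-like cell line, with 3 libraries for each clone and treatment. WT1, WT2 and WT3 were single-cell clones of wild-type cells. KO1 and KO2 were clones that carried a homozygous CRISPR-Cas9 deletion of B2_Mm2.Dicer1, a transposable element of the B2 SINE family in the first intron of Dicer1 on chromosome 12. Each clone was measured untreated (UT) and after 100 ng/mL interferon gamma (IFNG) for 4 h, which gives 9 WT and 6 KO libraries per treatment. Each line is 1 clone, so differences between KO and WT rest on 2 clones against 3, and a clonal difference unrelated to the deletion cannot be told apart from an effect of it with these libraries. The comparisons address whether any partner gene followed or offset the change of Dicer1.

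The members lie on 6 chromosomes in mm10: Drosha (chr15:12824815-12935291), Tarbp2 (chr15:102518192-102523676), Ago2 (chr15:73095844-73184935) and Tnrc6b (chr15:80711313-80941085) share chromosome 15, and Ago1 (chr4:126435012-126468583) and Ago3 (chr4:126331704-126429556) are neighbours on chromosome 4. Dgcr8 (chr16:18253948-18289246), Xpo5 (chr17:46202855-46242299), Prkra (chr2:76629898-76648015) and Tnrc6a (chr7:123123885-123195296) stand alone. None is on chromosome 12, where Dicer1 lies (chr12:104687742-104751952). Fragments over overlapping genes were counted for each gene. Dgcr8 shares exon sequence on its strand with Gm49776, which averaged 136.9 ± 10.6 CPM (counts scaled to the size of the library) in untreated WT libraries (SD, n = 9) against 46.0 ± 4.37 for Dgcr8, so the Dgcr8 level may hold fragments of the other gene. Drosha, Tnrc6a and Tnrc6b also overlap small genes, the highest of which reached 6.71 CPM in any library (Gm47288).

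The promoter sequence upstream of the RefSeq start is shown for Dicer1 and for the 3 members whose levels differed from WT in most KO comparisons (GRCm38.p6, 5′ to 3′, on the strand of the gene). Capitals mark short motifs found on either strand. The first is the GC box, whose letters are GGGCGG. The second is the box named by its own letters, CCAAT. The last is the core bound by ETS factors, which reads CCGGAA in full.
Dicer1, chr12:104751953-104752202, minus strand: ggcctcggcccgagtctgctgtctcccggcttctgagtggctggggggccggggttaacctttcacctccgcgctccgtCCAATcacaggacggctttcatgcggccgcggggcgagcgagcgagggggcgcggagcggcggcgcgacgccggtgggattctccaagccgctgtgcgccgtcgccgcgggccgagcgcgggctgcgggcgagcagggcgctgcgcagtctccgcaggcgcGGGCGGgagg
Xpo5, chr17:46202626-46202810, plus strand: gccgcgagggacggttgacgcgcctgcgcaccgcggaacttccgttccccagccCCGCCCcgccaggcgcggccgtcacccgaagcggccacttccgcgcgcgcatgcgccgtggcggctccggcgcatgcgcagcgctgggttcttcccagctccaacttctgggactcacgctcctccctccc
Ago3, chr4:126429543-126429792, minus strand: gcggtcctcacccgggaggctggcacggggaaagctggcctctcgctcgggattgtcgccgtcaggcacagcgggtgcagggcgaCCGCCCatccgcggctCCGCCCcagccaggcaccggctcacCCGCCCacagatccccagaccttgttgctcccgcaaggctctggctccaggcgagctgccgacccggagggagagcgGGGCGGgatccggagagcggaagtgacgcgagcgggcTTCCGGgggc
Tnrc6b, chr15:80711063-80711312, plus strand: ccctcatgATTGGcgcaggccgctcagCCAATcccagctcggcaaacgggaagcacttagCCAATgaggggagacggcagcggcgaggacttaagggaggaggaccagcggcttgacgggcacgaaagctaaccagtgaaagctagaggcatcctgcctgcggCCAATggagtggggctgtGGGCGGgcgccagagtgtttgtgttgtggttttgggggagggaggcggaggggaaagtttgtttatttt
For Xpo5 the 65 bases that overlap Polh on the other strand are left out. RefSeq windows of 250 bases before to 50 after the start matched 9 of the 10 members in 11 windows, and Ago2 had no entry. GC boxes were in 8 of the 11 upstream sequences of members, against 32.7% of those of all 32851 windows, CCAAT boxes in 6 against 33.8%, and ETS cores in 2 against 12.03%. The 2 windows of Ago1 overlap and hold the same 2 GC boxes and 1 CCAAT box. The second window of Tnrc6b, inside the gene, holds none of the 3 motifs. GC content was 44.7% to 75.7% in the windows of members, against a median of 52.7% over all windows. These 3 motifs were chosen after the data were seen, may overlap each other, and are a description of the letters only.

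Totals per library ran from 15566122 to 37992642 counted fragments (median 23682133.5). The lowest count of any member in any library was 225, for Tarbp2. All 9 macrophage markers examined were detected, and Csf1r, the receptor for macrophage colony-stimulating factor, lay between 967 and 1469 CPM. Markers of other cell types, among them T and NK cells, epithelium, fibroblasts, endothelium and neutrophils, summed to at most 2.24 CPM per library, with the NK cell marker Ncr1 at 0 in all 30. WT1 stood apart from the other WT clones. In edgeR's quasi-likelihood test, 26.4% of genes were higher and 26.2% lower in untreated WT1 than in WT2 and WT3 (24.7% and 23.5% after IFNG). The same test called 0.852% (UT) and 0.541% (IFNG) of genes for WT2 and 1.02% (UT) and 1.38% (IFNG) for WT3. The reference of WT2 and of WT3 held WT1, which widens the spread in these fits. WT2 was not tested against WT3 alone, so the low shares do not show that these clones are alike. Because WT1 stood apart, some values against WT are also given without WT1 for the members, Dicer1, Ago4 and Tnrc6c. They are not given for every gene and comparison. Calls among all genes rose without WT1, so a call gained there is not by itself particular to a gene. For KO1 they went from 3658 to 7053 (UT) and from 2934 to 6291 (IFNG). For KO2 they went from 1674 to 5625 and from 1411 to 4994. With both KO clones pooled they went from 3689 to 6472 and from 3258 to 5992.

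Per kilobase of annotated exon, Xpo5 and Ago2 were the highest members. In untreated WT libraries Xpo5 was at 32.02 ± 1.64 and Ago2, the Argonaute with slicing activity, at 24.1 ± 1.34 CPM per kb (SD, n = 9). Drosha (13.01 ± 1.096) and Ago1 (12.5 ± 0.583) followed, and their difference was smaller than the SD of Drosha. Prkra was at 9.31 ± 1.02, Tnrc6a at 7.86 ± 0.432, Dgcr8 at 5.98 ± 0.568 and Tnrc6b at 4.91 ± 0.676 CPM per kb. Dicer1, at 7.09 ± 0.674, lay between Tnrc6a and Dgcr8. Tarbp2 (3.47 ± 0.167) and Ago3 (1.44 ± 0.114) were the lowest members. Among the 4 Argonaute genes the order of the levels per length was Ago2, Ago1, Ago3 and Ago4 (1.00 ± 0.479), and the last pair overlapped within their SDs. Annotated exon length covers all transcripts of a gene, so genes with long or unused exons, such as Ago3, read low on this scale.

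**Figure D1:**
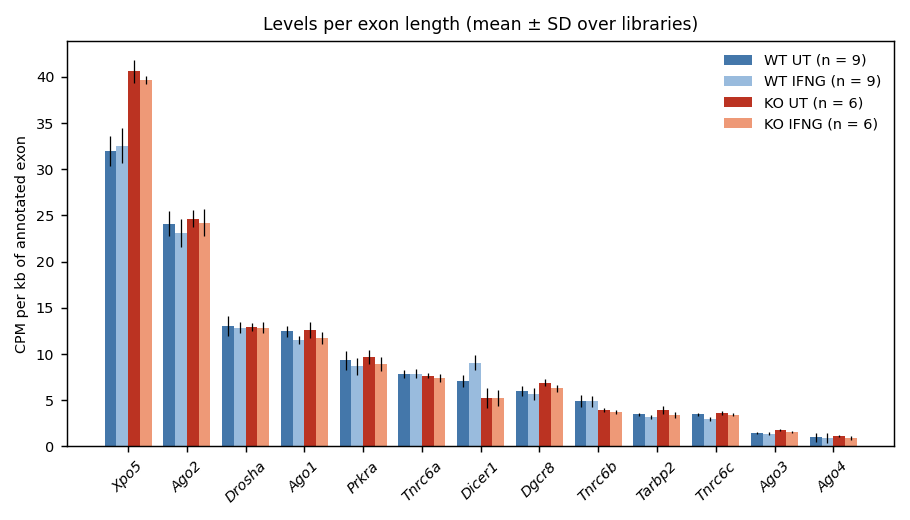
Mean CPM per kilobase of annotated exon for the 10 members, Dicer1, Ago4 and Tnrc6c in WT and KO libraries, UT and IFNG. Bars start at 0 and error bars are SDs over 9 WT or 6 KO libraries. Xpo5 and Ago2 are highest, and the KO bars exceed the WT bars for Xpo5, Ago3 and Dgcr8, among others.

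Levels varied little between libraries of a group. Pooled over the 10 groups, the SD of log2 levels between libraries of the same clone and treatment ran from 0.04 (Ago1) to 0.10 (Prkra) among the members. Between the untreated WT clones, the range of clone means was 0.42 on the log2 scale for Tnrc6b, the widest among the members, and 0.03 for Tarbp2, the narrowest.

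**Figure D2:**
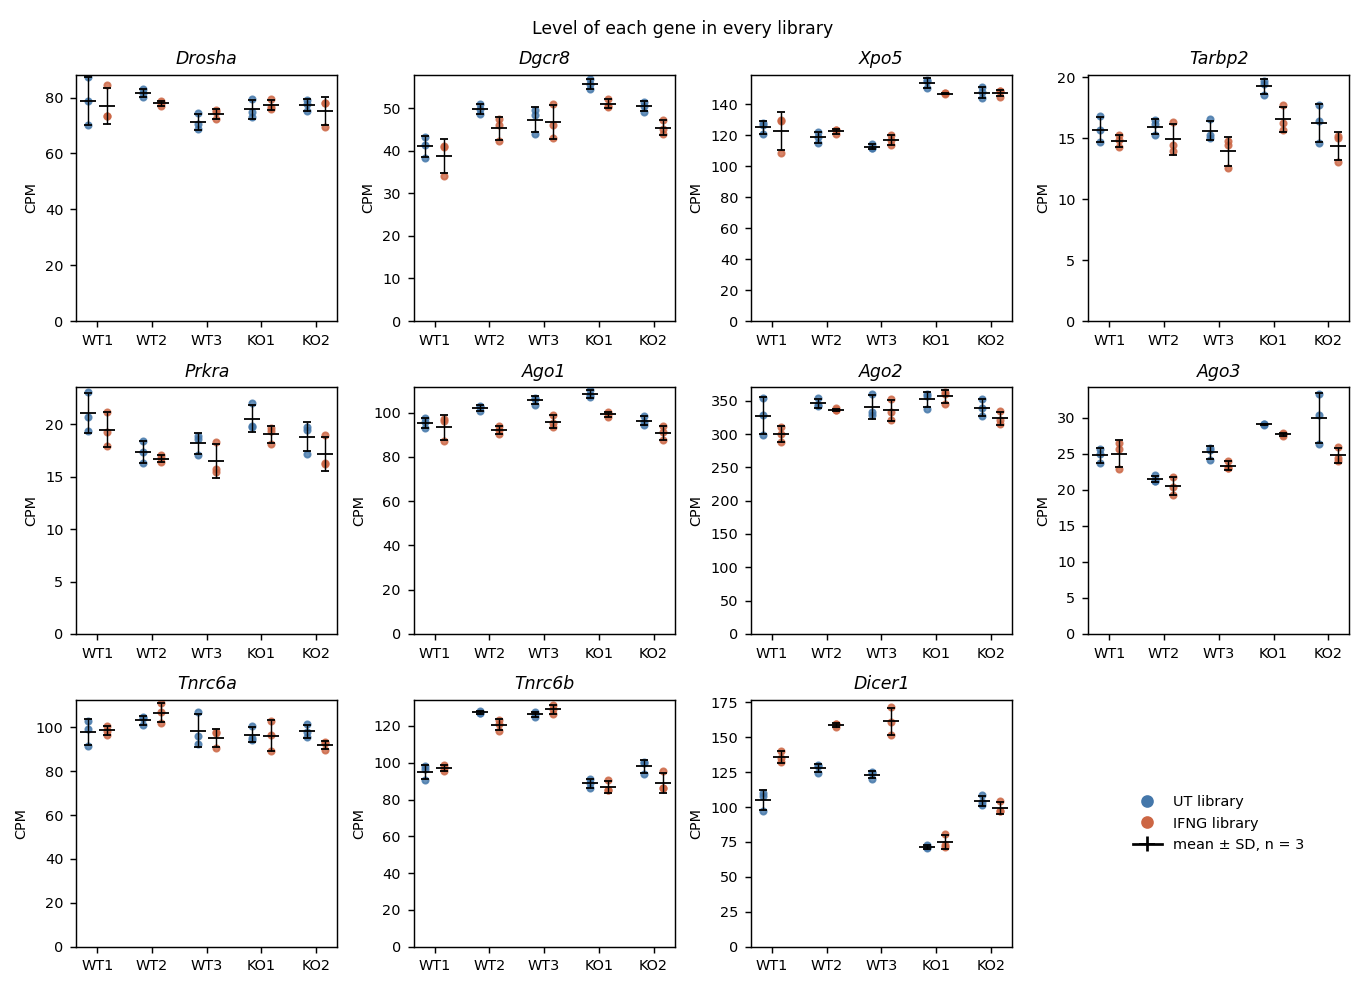
CPM of each member and of Dicer1 in all 30 libraries, by clone. Points are libraries and black marks are the mean ± SD of 3. Xpo5 is above all WT libraries in both KO clones, Tnrc6b is low in WT1, KO1 and KO2, and Dicer1 rises with IFNG in the WT clones.

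IFNG moved few of the members, and none in the direction of Dicer1. Dicer1 rose in WT1, WT2 and WT3 by log2 fold changes of 0.36 ± 0.06, 0.32 ± 0.04 and 0.40 ± 0.05 (± SE, n = 3 against 3, adjusted p of 7.6e-04, 2.2e-07 and 1.9e-06 in edgeR). No member was called higher in WT1 (11.8% of all genes tested), WT2 (17.4%), WT3 (18.6%), KO1 (16.2%), KO2 (13.9%), pooled WT (14.8%) or pooled KO (15.8%). The members called lower were 0 of 10 in WT1 (9.47% of all genes tested), Ago1 in WT2 (17%), Ago1 in WT3 (17.5%), 0 of 10 in KO1 (13.2%), Ago3 in KO2 (13.2%), Ago1 in pooled WT (13.9%) and 0 of 10 in pooled KO (14.8%). For a list of 10 genes, counts of 0 and 1 are close to these shares and are not a result particular to the members. At an unadjusted p under 0.05, edgeR had 0 members lower in WT1, 2 in KO1 and 3 in pooled KO, and DESeq2 called 0, 0 and 1 of them. No member was higher at that level in any clone.

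Ago1, an Argonaute gene, fell slightly. Its libraries stood at 100.8, 102.7 and 103.2 CPM in untreated WT2 and at 90.3, 92.1 and 94.2 after IFNG, and at 103.6, 106.3 and 106.9 in untreated WT3 and 93.4, 95.5 and 98.96 after IFNG. The libraries of the 2 treatments did not overlap in either clone, and the share of all genes without such overlap was not computed. The log2 fold change was -0.13 ± 0.04 in WT2 and -0.13 ± 0.04 in WT3 (edgeR adjusted p of 0.010 and 0.024). In WT1, KO1 and KO2 it was -0.04 ± 0.06, -0.10 ± 0.04 and -0.09 ± 0.05, not called, so the sign was the same in 5 of 5 clones. The call in WT2 was lost without 1 IFNG library (adjusted p = 0.055) and the call in WT3 without any 1 of 4 libraries (adjusted p up to 0.087). In pooled WT the value was -0.10 ± 0.03 (adjusted p = 0.024), and it was lost without WT2 (adjusted p = 0.26) or WT3 (0.15) and not without WT1 (-0.14, adjusted p = 0.0014).

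Ago3 fell in KO2 by 0.28 ± 0.08 on the log2 scale (edgeR adjusted p = 0.018). Its libraries were at 26.4, 30.4 and 33.3 CPM in untreated KO2 and at 24.1, 24.4 and 25.97 after IFNG. The groups did not overlap, but 1 untreated library lay within 0.5 CPM of the highest treated one, and the call was lost without any 1 of 3 libraries (adjusted p up to 0.10). The other clones gave 0.00 ± 0.08 (WT1), -0.05 ± 0.07 (WT2), -0.10 ± 0.06 (WT3) and -0.04 ± 0.06 (KO1). Tarbp2, Prkra and Dgcr8 had negative values in all 5 clones without a call, between -0.08 and -0.18 for Tarbp2, between -0.03 and -0.14 for Prkra and between -0.02 and -0.15 for Dgcr8. With clone as a block, which removes the differences between clones, Tarbp2 was called lower in pooled WT (-0.11) and Dgcr8, Tarbp2, Ago1 and Ago3 in pooled KO. Of all genes, that fit called 6190 of 13423 in pooled WT and 5564 of 13851 in pooled KO, in either direction. The share of all genes called lower was not computed for that fit, so the members called lower cannot be set against it. Drosha, Xpo5, Ago2, Tnrc6a and Tnrc6b showed no common sign. For Drosha, the 95% interval in pooled WT was -0.11 to 0.09, and for Ago2 it was -0.15 to 0.04, against a rise of Dicer1 whose interval began at 0.23.

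**Figure D3:**
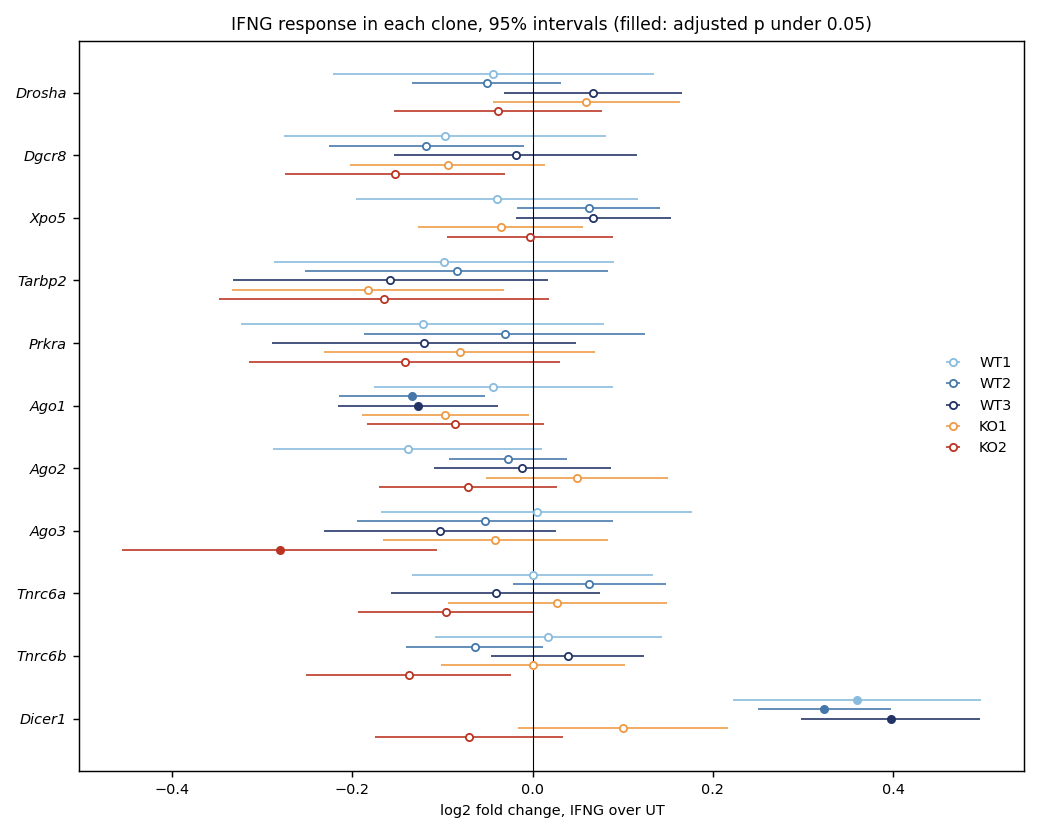
Log2 fold change from UT to IFNG for the 10 members and Dicer1 in each of the 5 clones, with 95% intervals from edgeR; filled points have an adjusted p under 0.05. Dicer1 is filled and above 0 in WT1, WT2 and WT3 and open in KO1 and KO2, and the only filled points among members are below 0 (Ago1 in WT2 and WT3, Ago3 in KO2).

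Between KO and WT, Dicer1 itself, the gene that holds the deleted element in an intron, was lower in KO1 by 0.74 ± 0.08 (UT) and 1.01 ± 0.09 (IFNG) on the log2 scale and in KO2 by 0.61 ± 0.08 after IFNG (edgeR adjusted p of 4.1e-05, 9.5e-06 and 5.5e-04). In untreated KO2 the value was -0.18 ± 0.08 and was not called (adjusted p = 0.18), but it was called without WT1 (-0.26, adjusted p = 4.7e-05). WT1 was itself lower in Dicer1 than the other WT clones (-0.25 UT and -0.24 IFNG, both called). Untreated libraries were at 96.8, 107.9 and 110.3 CPM in WT1 and at 101.3, 103.8 and 108.5 in KO2, so these overlapped. Of the 6 untreated KO libraries, 3 were below all 9 WT libraries. Without WT1 the KO1 values of Dicer1 were -0.82 (UT) and -1.09 (IFNG). The median of the other genes of chromosome 12 was -0.37 (UT) and -0.36 (IFNG) in KO1 and 0.00 and 0.02 in KO2.

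In untreated KO1, 4 of 10 members were called higher (11.1% of all genes) and 1 lower (14.6%). In untreated KO2, 2 were called higher (4.89%) and 0 lower (6.7%), with 1 lower at an unadjusted p under 0.05 in edgeR (Tnrc6b) and 0 lower in DESeq2. After IFNG, 2 were higher (8.76%) and 1 lower (12.1%) in KO1, and 1 higher (3.92%) and 1 lower (6.12%) in KO2. With both clones pooled, 3 were higher (12.2%) and 1 lower (14.4%) untreated, and 2 higher (10.9%) and 1 lower (13%) after IFNG. The median log2 fold change over the 10 members was 0.10 and 0.13 in KO1 (UT and IFNG) and 0.01 and -0.02 in KO2, against medians of all genes between -0.01 and 0.00. The 1674 calls behind the untreated KO2 shares went to between 825 and 854 with 1 KO2 library left out and to 5625 without WT1. The KO1 and KO2 comparisons share the 9 WT libraries of a treatment and so are not independent. The summed level of the 9 macrophage markers was 6154 to 7004 CPM in untreated KO libraries and 4400 to 5862 CPM in untreated WT libraries (5941 to 6499 and 4103 to 5348 CPM after IFNG), and its part in the differences of the members was not tested.

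Xpo5, the export gene, was higher in both KO clones under both treatments. Untreated libraries stood at 120.5, 126.5 and 128.1 CPM in WT1, 114.9, 118.7 and 122.2 in WT2, and 111.5, 111.9 and 114.4 in WT3. They stood at 150.2, 155.2 and 155.8 in KO1 and at 143.8, 147.7 and 150.9 in KO2. After IFNG the lowest, median and highest WT libraries were at 108.7, 120.8 and 129.99 CPM, and the KO libraries lay between 144.7 and 148.6. All 6 KO libraries were above all 9 WT libraries in each treatment. The share of all genes whose KO and WT libraries separate in this way was not computed, here or for the members below.

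The log2 fold change of Xpo5 was 0.36 ± 0.05 in KO1 and 0.31 ± 0.05 in KO2 untreated (edgeR adjusted p of 2.2e-04 and 0.0013), and 0.29 ± 0.06 and 0.28 ± 0.06 after IFNG (0.0028 and 0.0077). Without WT1 the values were 0.41 and 0.36 (UT) and 0.30 and 0.30 (IFNG), all called. Leaving out 1 KO2 library ended the call after IFNG (adjusted p = 0.053, log2 fold change 0.28). Other genes of chromosome 17 were also higher: their median was 0.18 in KO1 and 0.19 in KO2 untreated, and 0.18 in both clones after IFNG. Relative to that median Xpo5 was higher by 0.18 and 0.13 (UT) and by 0.11 and 0.10 (IFNG). In WT1 the chromosome 17 median was 0.26 (UT) and 0.25 (IFNG) against the other WT clones, while Xpo5 was at 0.13 ± 0.04 (adjusted p = 0.014) and 0.03 ± 0.06 (adjusted p = 0.74). The untreated call in WT1 was lost without 1 of 2 libraries (adjusted p up to 0.071).

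Ago3 was higher in both untreated KO clones. The untreated libraries of WT1 were at 23.7, 25.03 and 25.7 CPM, those of WT2 at 21.3, 21.3 and 22.1, and those of WT3 at 24.2, 25.6 and 25.9. KO1 libraries were at 29.1, 29.1 and 29.2 and KO2 libraries at 26.4, 30.4 and 33.3 CPM, all above every WT library. After IFNG, KO1 (27.5, 27.8 and 27.9 CPM) stayed above all WT libraries, whose lowest, median and highest values were 19.3, 22.999 and 26.5, and KO2 (24.1, 24.4 and 25.97) lay within them.

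The log2 fold change of Ago3 was 0.28 ± 0.07 in KO1 and 0.33 ± 0.08 in KO2 untreated (edgeR adjusted p of 0.012 and 0.020), and 0.28 ± 0.08 (0.029) and 0.10 ± 0.09 (0.52) after IFNG. The chromosome 4 medians were at most 0.01. The call in untreated KO2 was lost without either of 2 of its libraries (adjusted p = 0.15 and 0.090) or without WT2 (0.053), and that in KO1 after IFNG without any of its 3 libraries (adjusted p up to 0.11), WT2 (0.062) or WT3 (0.069). Without WT1, the values were 0.31 and 0.36 (UT) and 0.34 and 0.17 (IFNG), the last not called (adjusted p = 0.071). In the pooled comparison after IFNG (0.19 ± 0.07, adjusted p = 0.044) the call was lost without KO1 (0.52), WT2 (0.20) or WT3 (0.10). Ago1, the neighbour of Ago3 on the same strand, was at 0.09 ± 0.05 in KO1 and -0.07 ± 0.05 in KO2 untreated, and was not called against all WT clones. Without WT1 it was called lower in untreated KO2 (-0.10, adjusted p = 0.020).

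Tnrc6b, 1 of the GW182 genes, was lower in the KO clones than in pooled WT in most comparisons, and WT1 lay nearer to the KO clones than to WT2 and WT3. Untreated libraries were at 126.9, 127.0 and 128.4 CPM in WT2 and 124.9, 126.3 and 127.8 in WT3, and at 90.8, 96.4 and 98.2 in WT1. KO1 libraries stood at 86.3, 89.1 and 91.1 and KO2 libraries at 94.0, 99.8 and 100.3 CPM, so those of KO2 overlapped those of WT1. After IFNG, WT1 was at 95.4, 96.9 and 98.9 CPM, KO1 at 85.1, 85.1 and 90.8 and KO2 at 86.0, 86.0 and 95.5, with WT2 and WT3 between 117.4 and 131.4.

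The log2 fold change of Tnrc6b against pooled WT was -0.40 ± 0.11 in KO1 and -0.24 ± 0.11 in KO2 untreated (edgeR adjusted p of 0.020 and 0.20), and -0.40 ± 0.11 and -0.38 ± 0.11 after IFNG (0.019 and 0.045). WT1 against the other WT clones gave values of the same size, -0.40 ± 0.04 (UT, adjusted p = 4.1e-07) and -0.37 ± 0.05 (IFNG, 2.6e-05). Without WT1 the KO values were -0.52 and -0.37 untreated and -0.52 and -0.49 after IFNG, all called (adjusted p at most 6.0e-06). The pooled untreated call (-0.32 ± 0.08, adjusted p = 0.0099) was lost without WT2 (0.071), WT3 (0.068) or KO1 (0.20). The calls in KO1 and KO2 were lost without WT2 or WT3 (adjusted p of 0.062 to 0.15) and without any 1 of the 3 libraries of the KO clone (0.057 to 0.19). Untreated, the KO2 and WT1 libraries overlapped, and after IFNG 5 of 6 KO libraries were below all 9 WT libraries. The KO clones were not tested against WT1 alone. Tnrc6a, the paralog on chromosome 7, was at -0.06 ± 0.05 and -0.02 ± 0.05 untreated and at -0.05 ± 0.07 and -0.13 ± 0.06 after IFNG in KO1 and KO2, none called. Without WT1 Tnrc6a was at -0.07 and -0.03 untreated and at -0.06 and -0.14 after IFNG, again not called.

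Dgcr8 and Tarbp2 were called higher in untreated KO1 and not in KO2. Dgcr8 libraries stood at 54.6, 55.6 and 56.8 CPM in untreated KO1, above all WT libraries, and at 49.1, 50.6 and 51.5 in KO2. WT1 was at 38.4, 41.4 and 43.3, WT2 at 48.5, 49.7 and 50.9 and WT3 at 44.0, 48.3 and 49.5 CPM. The log2 fold change of Dgcr8 was 0.26 ± 0.08 in KO1 (edgeR adjusted p = 0.023) and 0.13 ± 0.08 in KO2 (0.33), and the difference between the 2 clones was not tested. The KO1 call was lost without any of its 3 libraries (adjusted p up to 0.091). The pooled untreated value of 0.20 ± 0.06 (adjusted p = 0.020) was 0.13 without WT1 (0.025) and was lost without KO1 (0.13, adjusted p = 0.33). After IFNG Dgcr8 was at 0.24 ± 0.09 in KO1 (0.098) and was called there without WT1 (0.16, 0.039). Dgcr8 was lower in WT1 than in the other WT clones by 0.23 ± 0.05 (UT, adjusted p = 0.0026) and 0.25 ± 0.08 (IFNG, 0.012), and the latter was lost without 1 WT1 library (0.075). Gm49776, which overlaps Dgcr8, stood at 134.3 to 160.4 CPM in untreated KO and 118.4 to 151.0 CPM in untreated WT libraries.

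Tarbp2 stood at 18.6, 19.5 and 19.7 CPM in untreated KO1 libraries, above the WT libraries (14.7 to 16.8), and at 14.6, 16.4 and 17.7 in KO2. Its log2 fold change was 0.28 ± 0.05 in KO1 (edgeR adjusted p = 0.0026), a call that held without each KO1 library and each WT clone, and 0.04 ± 0.07 in KO2 (0.75). After IFNG the values were 0.20 ± 0.07 (0.082) and -0.02 ± 0.08 (0.94), and Tarbp2 was called in KO1 without WT1 (0.21, 0.041). Prkra, which encodes the other Dicer1 partner, was at 0.11 ± 0.09 in KO1 and -0.01 ± 0.10 in KO2 untreated, and differed more between WT clones, with WT1 higher by 0.26 ± 0.07 (UT, adjusted p = 0.0048) and 0.22 ± 0.08 (IFNG, 0.027, lost without either of 2 of its libraries, up to 0.16). Without WT1, Prkra was called higher in KO1 (0.20 in each treatment, adjusted p of 0.012 and 0.028). On the log2 scale the KO1 mean of Prkra lay below that of WT1, at 4.39 against 4.43 untreated and 4.29 against 4.32 after IFNG.

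Drosha and Ago2 were not called in any KO comparison. Drosha, the nuclease that acts upstream of Dicer1, averaged 77.2 ± 6.50 CPM in untreated WT (n = 9) and 76.6 ± 2.65 in untreated KO libraries (n = 6). The pooled log2 fold change was -0.02 with a 95% interval of -0.13 to 0.10, and 0.00 with an interval of -0.09 to 0.09 after IFNG. Ago2 averaged 338.2 ± 18.8 CPM in WT and 345.6 ± 12.97 in KO untreated, with a log2 fold change of 0.03 (-0.06 to 0.11) and of 0.07 (-0.04 to 0.18) after IFNG. Without WT1 the pooled values were 0.00 (UT) and 0.00 (IFNG) for Drosha and 0.01 and 0.01 for Ago2, none called. WT1 was lower than the other WT clones in Ago2 after IFNG by 0.17 ± 0.05 (edgeR adjusted p = 0.0060) and in Ago1 untreated by 0.11 ± 0.04 (0.017, lost without 1 WT1 library, 0.066). In all, untreated WT1 was higher than the other WT clones in 2 members (26.4% of all genes) and lower in 3 (26.2%). After IFNG WT1 was higher in 1 member (24.7%) and lower in 3 (23.5%). For a list this short, these counts are close to the shares of all genes and are not a result particular to the members. WT2 and WT3, each set against a reference that held WT1, had 0 members called in either treatment in edgeR or DESeq2. At an unadjusted p under 0.05 in edgeR, 1 (UT) and 2 (IFNG) members stood out in WT2 and 2 and 1 in WT3.

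**Figure D4:**
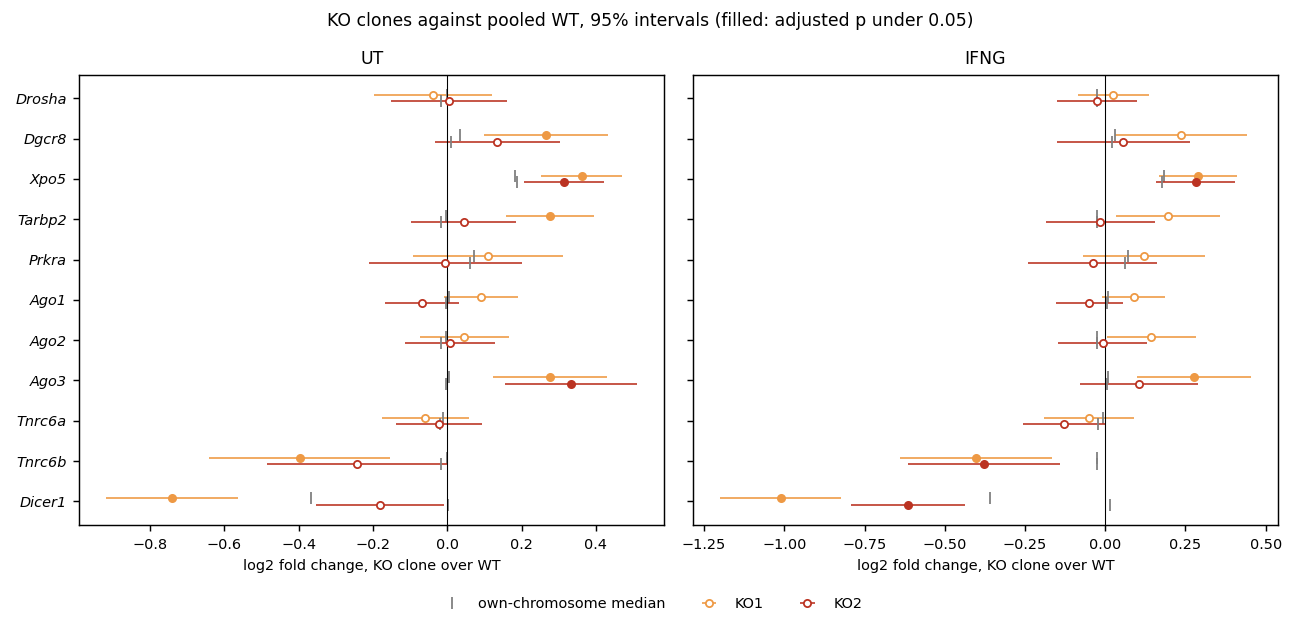
Log2 fold change of KO1 and KO2 against the 3 WT clones for the 10 members and Dicer1, UT (left) and IFNG (right, on a wider axis), with 95% intervals from edgeR; filled points have an adjusted p under 0.05 and grey ticks are the median of the other genes of the chromosome. Xpo5 is filled above 0 in all 4 positions with its ticks near 0.18, and Tnrc6b is below 0 in all 4.

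With the clone as the unit, 2 KO against 3 WT, the smallest p that an exact permutation test can give is 0.1, so none can pass 0.05. In the two-sided exact test on mean log2(CPM + 0.5), Xpo5 reached that smallest value in both treatments (0.34 higher untreated and 0.29 higher after IFNG, exact p = 0.1). Ago3 (0.31) and Tarbp2 (0.16) reached it untreated only, and after IFNG their exact p was 0.3 and 0.5. For Tarbp2 the untreated KO2 mean was 4.06 and the highest WT mean 4.04 (WT2), with an SD between libraries of 0.09. The share of all genes that reach the smallest value was not computed. Tnrc6b had exact p of 0.3 untreated and 0.2 after IFNG. Fitted to counts summed per clone, no member was called (Xpo5 adjusted p of 0.28 untreated and 0.29 after IFNG), and 1 gene of all was called in each treatment. In the interaction fit over all 30 libraries, which has a term for each clone, no member was called for a response to IFNG that differed by genotype (150 of 14682 genes called, 1.02%). That count was 570 without WT1, 35 without WT2, 73 without WT3 and 21 without KO1. No member had an unadjusted p under 0.05, and DESeq2 called 0. The lowest adjusted p among them was 0.57, for Ago3 (-0.12, 95% interval -0.26 to 0.01), and Dicer1 was at -0.36 ± 0.05 (adjusted p = 5.7e-05).

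Across the 10 clone-by-treatment means, the Pearson correlation of log2 levels with Dicer1 was 0.80 for Tnrc6b, which ranked 547 of 12344 genes that averaged 1 CPM or more. It was 0.48 for Tnrc6a and -0.02 for Drosha. It was negative for the other 7 members, with -0.82 for Xpo5 (rank 11893), -0.77 for Tarbp2 and -0.77 for Ago3, and between -0.44 and -0.64 for Ago1, Ago2, Dgcr8 and Prkra. The median over all genes was -0.01. The 10 points come from 5 clones, share libraries between genes and fall into WT and KO groups, so the values are a description. Within the 5 untreated means the value was 0.86 for Tnrc6b and -0.84 for Xpo5, and within the 5 IFNG means 0.88 and -0.93.

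The gene whose 10 means were most like those of a member was Gm11451 for Xpo5 (r = 0.99), Agpat3 for Tnrc6b (0.99), Myo10 for Ago3 (0.95), Cnih1 for Dgcr8 (0.98), Snap47 for Tarbp2 (0.97) and 2500002B13Rik for Prkra (0.98). It was Atg9b for Ago1 (0.96), Aldh7a1 for Drosha (0.94), Pdxdc1 for Ago2 (0.93) and Rfc2 for Tnrc6a (0.89). Over 12344 genes, a high maximum arises in any such search.

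**Figure D5:**
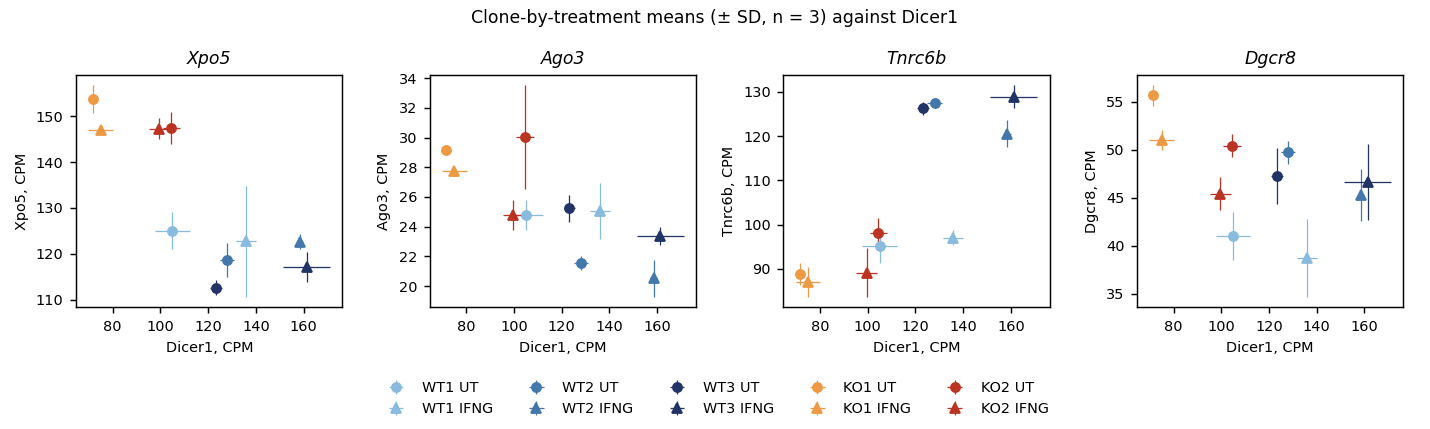
Mean CPM of Xpo5, Ago3, Tnrc6b and Dgcr8 against that of Dicer1 for the 5 clones, UT (circles) and IFNG (triangles); bars are SDs over 3 libraries. Xpo5 is high in the KO clones, where Dicer1 is low. Along the Tnrc6b axis the WT1 points lie near those of the KO clones. Along the Dicer1 axis untreated WT1 lies near untreated KO2.

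Of the remaining paralogs, Ago4 was low, from 2.07 to 13.4 CPM in WT libraries after IFNG, and differed most between WT clones: WT1 was higher than WT2 and WT3 by 1.18 (UT) and 1.39 (IFNG) on the log2 scale, and KO1 and KO2 were not called against WT. Without WT1, Ago4 was called higher in KO1 (0.82 untreated and 0.98 after IFNG, adjusted p of 0.0062 and 0.011). It fell with IFNG in WT3 (-0.51 ± 0.17, adjusted p = 0.023, lost without any 1 of 4 libraries, up to 0.091) and in KO2 (-0.47 ± 0.11, 0.0040). Tnrc6c fell with IFNG in WT2 (-0.26 ± 0.05) and WT3 (-0.21 ± 0.05) and in pooled WT (-0.21 ± 0.04, edgeR adjusted p = 7.6e-04). After IFNG it was higher in KO1 than in WT by 0.22 ± 0.06 (adjusted p = 0.025), lost without WT2 or either of 2 KO1 libraries (up to 0.17), and at 0.21 ± 0.07 in KO2 (0.066). Without WT1 Tnrc6c was called after IFNG in KO1 (0.25, adjusted p = 0.0033) and KO2 (0.25, 0.0064) and in untreated KO2 (0.12, 0.049).

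Other genes of the pathway were counted from lists. In pooled WT after IFNG, cofactors of nuclear processing and export had 2 of 10 genes higher (14.8% of all genes) and 1 lower (13.9%). The same shares of all genes apply to the lists that follow. Genes that modify or degrade hairpin precursors had 2 of 6 tested higher and 2 lower, among them Adar, which edits double-stranded RNA (1.21 ± 0.05, edgeR adjusted p = 8.2e-14), and Tut4, a terminal uridylyltransferase (-0.51 ± 0.05). Argonaute loading chaperones had 1 of 9 higher and 1 lower, and deadenylase genes 1 of 12 higher and 2 lower. Decapping and decay genes had 3 of 11 higher and 1 lower, with the decapping enzyme gene Dcp2 at 0.75 ± 0.08. Argonaute-associated genes had 3 of 11 tested higher and 0 lower, with the helicase gene Mov10 at 0.77 ± 0.09.

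Of the 59 genes of these lists tested in both KO clones, 5 were called in the same direction in both untreated (8.47%, against 8.55% of all genes) and 5 after IFNG (8.47%, against 7.33%). Ncbp1, a cap-binding subunit, was higher untreated (0.17 in KO1 and 0.15 in KO2) and after IFNG (0.20 and 0.20). Cnot11, of the CCR4-NOT deadenylase complex, was lower untreated (-0.25 and -0.35) and after IFNG (-0.29 and -0.35), and Pan3, a subunit of the PAN deadenylase, was higher untreated (0.24 and 0.28). Ipo8, an importin that binds Argonaute, was lower untreated (-0.36 and -0.23) and after IFNG (-0.32 and -0.33), but the median of the other genes of its chromosome, 6, was -0.27 and -0.28 untreated and -0.26 and -0.28 after IFNG. For the other genes named here the chromosome median was between -0.09 and 0.01. Dis3l2, an exonuclease for uridylated RNA, was lower untreated (-0.50 and -0.21). Eif4e2, a cap-binding repressor, was higher (0.27 and 0.20) and Wtip lower (-0.27 and -0.57) after IFNG. Of the 6 precursor control genes tested, 4 were lower in KO1 under each treatment (14.6% of all genes untreated and 12.1% after IFNG), and in KO2 1 was lower untreated (6.7%) and 0 after IFNG (6.12%). In these bulk samples a lower level per cell and fewer cells with the transcript cannot be told apart.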

How the data were processed

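RNA was sequenced from 30 libraries (5 clones, 2 treatments, 3 libraries each). The authors deposited unnormalized fragment counts for each gene. Reads had been trimmed with BBDuk, aligned to mm10 with HISAT2 2.1.0, merged over technical replicates with SAMtools 1.10 and counted with featureCounts 1.6.2 in reversely stranded mode (versions from the submitters' processing notes). The study's methods name a RefSeq annotation, while the table headers name Gencode vM18 with overlapping genes counted for each. The columns of 13 other tables held identical counts (138 of 138). Gene exon lengths are in the deposited table.

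Fits were made with edgeR 4.0.16 under R 4.3.3, using glmQLFit and glmQLFTest after filterByExpr and TMM scaling, with p-values adjusted over all genes tested by the Benjamini-Hochberg method at 0.05 and SE taken as the absolute log2 fold change over the square root of F. CPM used TMM factors from 14870 genes. Libraries of 1 clone served as replicates, and nothing in the labels says that they came from separate cultures. In fits of 1 clone, p-values therefore measure the spread between its libraries. Fits over several clones without a term for clone also take in the differences between clones of the same group. No library pair of a group agreed within sampling noise (chi-square per degree of freedom of at least 1.95). Clone means were compared by exact permutation. The SE with each fold change gives the precision reached at the depth of these libraries. Columns were matched to groups by name, and for WT2 and WT3 through the submitters' tables per clone.

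Members, gene lists and tests were chosen with earlier results of these data known. Named were all members, Dicer1, Ago4 and Tnrc6c. Of the other lists, up to 3 genes per direction were named, those called alike in both KO clones or called in pooled WT after IFNG with an absolute log2 fold change of at least 0.5. For each member the most correlated gene was named. Alternatives were DESeq2 1.42.0, RLE normalization, other count filters, chromosome medians, clone blocks, summed counts, other pseudocounts and left-out libraries or clones. Fits of some comparisons were tested on simulated data without differences between clones, which do not bear on the calls of KO against WT. Promoters came from RefSeq (GRCm38.p6). A marker result and the motif searches planned first are not reported here.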

Additional observations from a re-analysis of the deposited data

Results flagged for a closer look

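The response of Dicer1 to IFNG differed between genotypes by the interaction term of edgeR's quasi-likelihood fit over all 30 libraries, with a log2 difference of -0.36 for KO against WT (adjusted p = 5.7e-05). It was negative in the comparison of clone means as well (exact p = 0.1, the smallest that 5 clones allow).

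For Drosha, 1 KO2 library after IFNG stood at 69.6 CPM, and the nearest of the other 5 KO libraries was at 76.0 CPM. It was the only library flagged by an outlier rule among 52 groups of libraries examined. Chance flags about 1 in 20 groups, so 1 flag is no more than chance would give. Drosha was not called in any comparison.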

How the results depend on the processing

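No paired analysis was possible because the columns carry no replicate numbers, so libraries could not be matched by number. Clone, which UT and IFNG libraries share, served as the block. The changes include these. Members called after IFNG numbered 0 in WT3 with DESeq2 (1 in edgeR), 2 in pooled WT with clone as a block (1 without), and 1 with DESeq2 and 4 with clone as a block in pooled KO (0 without). Members called in KO against WT numbered 0 in each treatment with counts summed per clone (4 untreated and 3 after IFNG without summing), and 1 in KO2 after IFNG without a count filter (2 with it). Relative to its chromosome median, Xpo5 in untreated WT1 turned from 0.13 to -0.13, and after IFNG from 0.03, not called, to -0.22. The likeness of Drosha to Dicer1 was 0.12 over the 5 untreated means (-0.02 over 10). The cause was not tested. With 1 library or clone left out, members called after IFNG ranged over 0 to 1 in WT1, WT2, KO1, pooled WT and pooled KO and 0 to 2 in WT3 and KO2. In KO against WT they ranged over 2 to 5 (UT) and 2 to 3 (IFNG), in KO1 over 3 to 6 and 1 to 6, in KO2 over 1 to 4 and 0 to 2, and in WT1 against the other WT clones over 4 to 4 and 2 to 5. Over all genes, calls in KO against WT went from 3689 to 1 untreated and from 3258 to 1 after IFNG with counts summed per clone. Without WT1 they went from 3689 to 6472 and from 3258 to 5992. Calls for the IFNG response with clone as a block went from 3840 to 6190 in pooled WT and from 4246 to 5564 in pooled KO. In the interaction they went from 150 to 384 without a filter (570, 35, 73 and 21 without WT1, WT2, WT3 and KO1). With 1 KO library left out, calls in KO1 went from 3658 to between 2339 and 2359 (UT) and from 2934 to between 1691 and 1739 (IFNG), and in KO2 from 1674 to between 825 and 854 (UT) and from 1411 to between 533 and 696 (IFNG, 851 without WT2). Without WT1 they were 7053 and 6291 in KO1 and 5625 and 4994 in KO2. DESeq2 called 502 and 218 genes in WT2 (edgeR 119 and 74) and 606 and 884 in WT3 (143 and 189). The lowest member, Tarbp2, had 225 to 556 counts per library.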
